A study of Homo sapiens with 6 samples.

Results

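The genes for translation initiation and elongation factors were examined in THP-1 cells, a human monocytic line derived from an acute myeloid leukemia (AML), after depletion of the transcription factor NFIC. The members were all protein-coding genes of the deposited table whose symbol begins with EIF1 to EIF6 or with EEF1 or EEF2. EIF4EBP1 was left out of the 71 genes found in this way, which gave 70 members of the 33981 genes in the table. Besides the factors themselves, the rule takes in the kinases of eIF2 alpha and of eEF2, eIF4E binding proteins, methyltransferases of the elongation factors and 1 readthrough gene. Without these 4 kinds, 55 genes with the names of the factors remain, among them EEF1E1 and EIF4A3, which are described below with other roles.

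Both groups were THP-1 cells infected with a lentivirus on retronectin, sorted for GFP 4 days after infection and analyzed by bulk mRNA sequencing. The control group carried a scrambled shRNA (3 samples) and the other an shRNA against NFIC (3 samples), given in the study's text as the hairpin sh494. The labels call the control scrambled, whereas the study's methods speak of a vector with GFP only. If the control carried no hairpin, an effect of expressing any hairpin cannot be told apart from depletion of NFIC in each fold change. A single hairpin in a single cell line was sequenced, so an effect of the hairpin on another target cannot be told apart from depletion of NFIC. The labels number the replicates and do not say whether they came from separate infections, so the p-values measure the spread between these samples, which may be technical. Total counts were between 20369543 and 24809720 per sample, where 3 counts, taken as the detection floor, equal 0.122 to 0.146 CPM (counts scaled to the size of the library). This floor covers counting error only.

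NFIC itself (ENSG00000141905, chr19:3314403-3469217, GRCh38) was measured at 42.1, 41.4 and 42.2 CPM in the scrambled samples and at 19.4, 22.3 and 21.4 CPM in the NFIC shRNA samples. Its mRNA was thus reduced to 50.2% of control (log2 fold change -0.99 ± 0.072 (SE), edgeR adjusted p = 3.73e-09), with no overlap between the groups. CPM values are scaled by the TMM factor of each library throughout, and the 3 values of a group are those of replicates 1 to 3. The test was edgeR's quasi-likelihood test over 19182 genes with Benjamini-Hochberg adjustment, and a gene was called at an adjusted p under 0.05. Of the genes tested 59.9% were called, 29.6% higher and 30.3% lower after knockdown, which is the background for each count of members and of other listed genes. All 8 monocytic markers examined, LYZ, CD33, CD68, SPI1, CSF1R, ITGAM, FCGR1A and MPO, were expressed in every sample. Of these 2 were called higher and 4 lower. Among markers of other cell types HBB had 0 to 3 counts per library, EPCAM 2 to 17, GP9 19 to 44 and COL1A1 31 to 130, while PECAM1, which monocytes also express, had 3195 to 6015. CD3E was not analysed here. The part of these marker changes in the results for translation factors was not tested.

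Translation of an mRNA starts when the eIF4 factors bind its cap and unwind its leader and the small ribosomal subunit, carrying eIF1, eIF1A, eIF3, eIF5 and the eIF2-bound initiator tRNA, scans to the start codon. The large subunit then joins with the help of eIF5B. During elongation eEF1A delivers aminoacyl-tRNAs, the eEF1B subunits reload eEF1A with GTP, and eEF2 moves the ribosome along. Many mRNAs for these factors begin with a C followed by a run of pyrimidines, the 5′ terminal oligopyrimidine tract. Its translation is controlled by mTORC1 through LARP1, a protein that binds the cap and the tract.

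The starts of the members are shown here because this pattern was found in 11 of the lower members and in none of the higher members that had an entry. RefSeq promoter entries (GRCh38.p14) were matched by symbol for 56 of the 70 members. No entry was matched for EIF2S2, EIF2AK1, EIF3A, EIF3L, EIF3E, EIF3G, EIF3H, EIF3CL, EEF1D, EEF1A2, EEF1AKMT3, EEF2KMT, EEF1AKNMT and EEF1AKMT1. Each line gives 10 bases before the annotated transcription start and 20 bases from the start on, read 5′ to 3′ on the gene's strand, with the initial 5 transcribed bases in capitals. The last 20 bases begin the annotated transcript and the 10 bases before them are upstream of it. EEF1B2 has another annotated start (chr2:206159599-206159628), which begins with an A and is not shown. Members that were lower after knockdown and begin with C and at least 4 pyrimidines are represented by these genes.
EEF1A1 (chr6:73521013-73521042, minus strand): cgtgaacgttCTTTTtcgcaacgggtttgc
EEF2 (chr19:3985444-3985473, minus strand): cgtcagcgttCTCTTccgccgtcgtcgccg
EEF1B2 (chr2:206159885-206159914, plus strand): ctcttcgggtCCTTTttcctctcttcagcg
EIF4B (chr12:53006446-53006475, plus strand): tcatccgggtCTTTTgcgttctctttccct
EIF3F (chr11:7987327-7987356, plus strand): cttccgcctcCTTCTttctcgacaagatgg
EIF3K (chr19:38619178-38619207, plus strand): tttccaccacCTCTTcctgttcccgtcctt
EIF3M (chr11:32583821-32583850, plus strand): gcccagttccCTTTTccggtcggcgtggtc
EIF2S3 (chrX:24054946-24054975, plus strand): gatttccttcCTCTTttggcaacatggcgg
EIF2D (chr1:206612446-206612475, minus strand): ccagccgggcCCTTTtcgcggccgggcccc
For contrast, EEF1G, which fell but whose annotated start is an A, and 2 members that rose are given below them.
EEF1G (chr11:62573872-62573901, minus strand): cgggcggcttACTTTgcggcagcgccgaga
EIF4H (chr7:74174346-74174375, plus strand): ctcgctcaccCTGGTtcctctcggagcgga
EIF4E (chr4:98929114-98929143, minus strand): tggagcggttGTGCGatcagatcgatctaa

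The pattern searched was a C at an annotated start followed by 4 bases that are each C or T, on the gene's strand only and at any of the starts listed for a gene. It was found in 13 of the 56 members. Among members called lower, 11 of 24 had it (45.8%), which are the 9 genes printed with such a start together with EIF3D and EIF4A2. Among members called higher none of 14 had it, and among those not called 1 of 16 did (EIF2A). The remaining gene with the pattern, EIF2S3B, was too low to test. In the same kind of entry it was present in 828 of 11406 genes tested (7.26%), counted per gene as for the members. Counted per entry, over tested and other genes alike, it was present in 4.07% of all 35116 promoters of the table. Over all tested genes that begin in this way 43.8% were called lower and 25.2% higher (median log2 fold change -0.14), against 30.6% and 34.0% of those that do not (median 0.01). The 12 tested members with it had a median of -0.66, and 11 of them (91.7%) were lower. This feature was chosen after the values had been seen, an annotated start is not a start measured in these cells, and the pattern was not tested as a cause. The E-box CACGTG, a palindrome that reads alike on both strands, occurred between 250 bases before and 50 after the start in 8 of the 24 lower members, 4 of the 14 higher members and 2 of the 16 not called, and in 12.4% of the genes tested. The palindromic NFI sequence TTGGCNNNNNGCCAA was in the window of none of the 56 members and of 5 of the 11406 genes tested. Only this exact sequence was searched, and it is so rare that its absence from the members decides nothing about binding of NFIC.

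Of the 70 members 68 passed the filter on low counts. After knockdown 33 were called lower, 16 were called higher and 19 were not called. The share called, 49 of 68, stood beside 59.9% of all genes, and the 33 lower genes beside 30.3% of all genes. The median log2 fold change was -0.16 for the members and -0.01 for all genes tested. A decrease of at least 0.5 on the log2 scale was seen in 20 members, where 19.9% of all genes were called with such a decrease, and an increase of at least 0.5 in 3 members, where the share of all genes was 13.6%. The 3 scrambled samples and the 3 NFIC shRNA samples did not overlap in 59 of the 68, beside 65.2% of all genes. In a bulk sample less RNA from a gene in each cell cannot be told apart from fewer cells that express it. The 2 members not tested were EIF2S3B, a copy of the eIF2 gamma gene with at most 0.203 CPM, and EIF4E1B, an eIF4E relative of germ cells with a read in only 1 scrambled library.

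**Figure D1:**
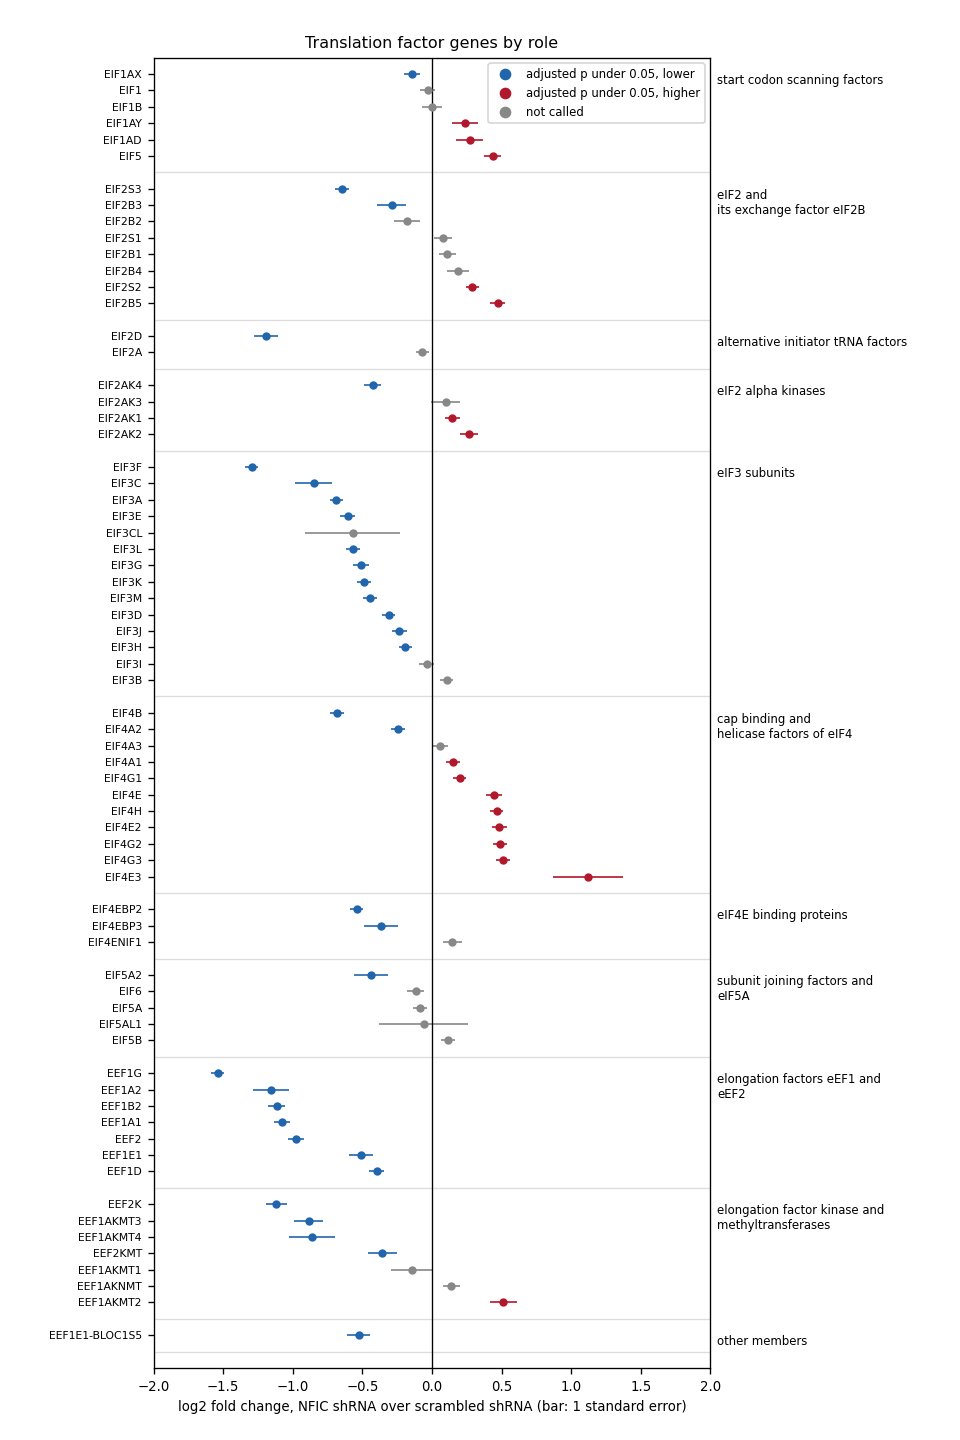
Log2 fold change of each of the 68 tested members after NFIC knockdown (horizontal axis; bar, 1 standard error of edgeR's fit; n = 3 per group), arranged by role. Blue points were called lower, red points higher and grey points were not called; all 7 genes of the eEF1 and eEF2 group lie left of zero, as do 11 of the 14 eIF3 genes in blue, while 8 of the 11 eIF4 genes are red.

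The 6 members with the highest FPKM in scrambled samples (EEF1A1, EEF2, EEF1G, EEF1B2, EIF4B and EIF3L) were all called lower. Summed over the 70 members, the level was 41604 ± 665 CPM (SD, n = 3) in scrambled samples and 24605 ± 974 CPM after knockdown, a change of -40.9%. The members took 4.07% to 4.19% of all counts in scrambled samples and 2.33% to 2.55% in NFIC shRNA samples, and EEF1A1 alone 2.39% to 2.49% and 1.05% to 1.24%. Without EEF1A1 the sum changed by -24.0%, from 17074 ± 128 to 12983 ± 108 CPM. An exact two-sided permutation test gave p = 0.1 for both sums, the smallest value that 3 against 3 samples allow.

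Per length, in the deposited FPKM, the order in scrambled samples began with EEF1A1 at 4427 ± 106 FPKM (SD, n = 3), EEF2 at 758 ± 25.7, EEF1G at 567 ± 6.20 and EEF1B2 at 533 ± 5.34. EIF4B at 212 ± 9.31 FPKM and EIF3L at 147 ± 3.49 FPKM came next, ahead of EIF1 at 134 ± 5.83 FPKM. These neighbours lie further apart than the SD of either, whereas EIF4A1 at 94.3 ± 2.35 and EIF3D at 91.9 ± 2.28 FPKM lower in the order do not. After knockdown EEF1A1 remained the most abundant at 2119 ± 148 FPKM and EEF2 followed at 389.9 ± 28.3 FPKM. EEF1B2 at 248 ± 24.2 FPKM then lay above EEF1G at 197 ± 5.06 FPKM, an inverted order. EIF4B at 134 ± 4.69, EIF1 at 133 ± 6.85 and EIF2S2 at 126 ± 3.30 FPKM were close to each other.

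**Figure D2:**
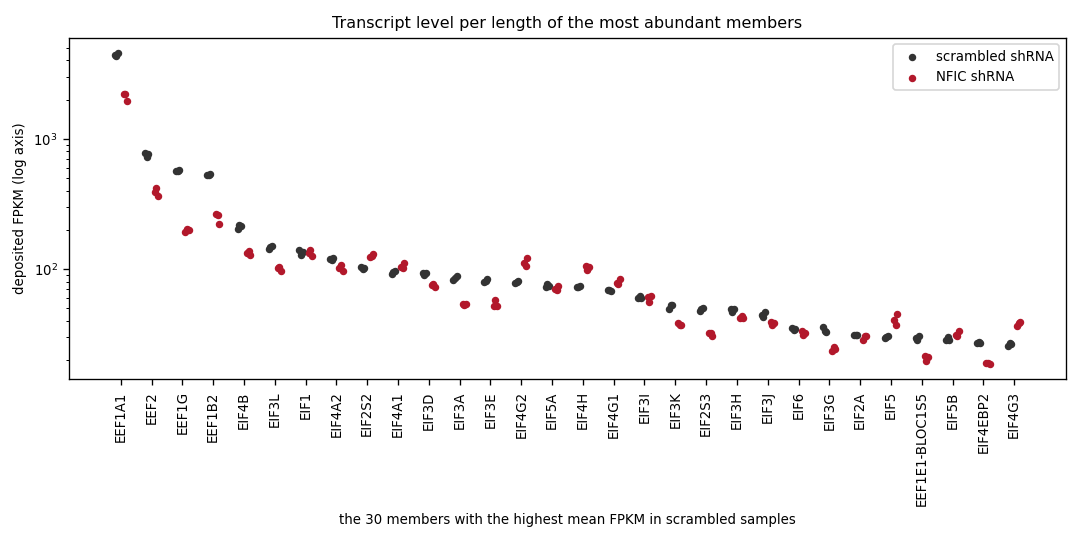
Deposited FPKM (vertical log axis) of the 30 members with the highest mean level in scrambled samples, in that order; each point is 1 of 3 samples with scrambled shRNA (dark) or NFIC shRNA (red). EEF1A1, EEF2, EEF1G and EEF1B2 are the 4 genes above 500 FPKM in the scrambled samples and each is lower in every NFIC shRNA sample.

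All 7 genes of the eEF1 and eEF2 group fell, 6 that encode elongation factors or their subunits, and EEF1E1. Their sum went from 30458 ± 618 to 14399 ± 1048 CPM, a change of -52.7% (exact permutation p = 0.1), and their median log2 fold change was -1.08. EEF1A1 (ENSG00000156508, chr6:73489308-73525587), the GTPase that brings aminoacyl-tRNA to the ribosome, had 24432, 24049 and 25109 CPM in the scrambled samples and 12233, 12025 and 10609.9 CPM in the NFIC shRNA samples. Each knockdown sample lay far below each control, at 47.4% of control in the fit (log2 fold change -1.08 ± 0.059 (SE), edgeR adjusted p = 1.27e-10). Its tissue-restricted paralog EEF1A2 had 42.2, 40.3 and 44.1 CPM with scrambled and 20.04, 22.5 and 14.3 CPM with NFIC shRNA, at a far lower level (log2 fold change -1.16 ± 0.13 (SE), edgeR adjusted p = 6.97e-06).

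The exchange factor eEF1B, which recharges eEF1A, is made of subunits encoded by EEF1B2, EEF1D and EEF1G. EEF1G (ENSG00000254772, chr11:62559596-62574086), the gamma subunit, showed the largest decrease of all 68 tested members. It was measured at 1502, 1514 and 1526 CPM in scrambled samples and at 509, 534 and 518 CPM after knockdown (log2 fold change -1.54 ± 0.047 (SE), edgeR adjusted p = 1.72e-13). The spread within either group was small, and 34.4% of the control level remained. AP002990.1, a gene on the same strand that holds 99.7% of the exonic bases of EEF1G, had 101% to 103% of the counts of EEF1G in every sample, so the table does not tell which of the 2 genes gave these reads. EEF1B2, the catalytic alpha subunit, had 1031, 1025 and 1041 CPM with scrambled and 507, 503 and 419 CPM with NFIC shRNA (46.1% of control, log2 fold change -1.12 ± 0.063 (SE), edgeR adjusted p = 2.94e-10). NFIC replicate 3 was the lowest of the knockdown samples for this gene, as it was for EEF1A1 and EEF1A2. EEF1D, the delta subunit, changed least among the elongation factors, from 239, 225 and 231 CPM to 175, 186 and 166 CPM (log2 fold change -0.40 ± 0.053 (SE), edgeR adjusted p = 5.23e-06). AC067930.5 covers 31.2% of its exonic bases on the opposite strand and had 83.8% to 86.5% of its counts, so reads of these 2 genes cannot be told apart either.

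EEF2 (ENSG00000167658, chr19:3976056-3985463), the translocase, was at 3185, 2971 and 3106 CPM in scrambled samples and at 1576, 1688 and 1447 CPM in NFIC shRNA samples. The groups were widely separated, with 50.9% of control remaining (log2 fold change -0.98 ± 0.058 (SE), edgeR adjusted p = 2.97e-10). EEF1E1, an auxiliary protein of the aminoacyl-tRNA synthetase complex that shares the eEF1 name, had 21.6, 19.1 and 21.6 CPM with scrambled and 14.1, 14.1 and 15.5 CPM with NFIC shRNA (log2 fold change -0.51 ± 0.088 (SE), edgeR adjusted p = 8.25e-05). The readthrough gene EEF1E1-BLOC1S5 moved by a like amount, from 23.02, 22.3 and 23.7 CPM to 16.7, 14.9983 and 16.2 CPM (log2 fold change -0.53 ± 0.081 (SE), edgeR adjusted p = 2.61e-05). It holds exons of EEF1E1 over 51.2% of its bases, and the counts of EEF1E1 were 84.6% to 95.5% of its own, so it is not an independent measurement.

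Among the enzymes that modify elongation factors 4 of 7 fell and 1 rose. EEF2K, the kinase that phosphorylates eEF2 and thereby slows elongation, fell together with its substrate. Its level was 42.3, 44.6 and 47.5 CPM in scrambled samples and 19.5, 20.3 and 22.2 CPM after knockdown, 46.1% of control (log2 fold change -1.12 ± 0.075 (SE), edgeR adjusted p = 1.44e-09). Of the lysine methyltransferases of eEF1A, EEF1AKMT3 had 13.2, 13.04 and 12.5 CPM with scrambled and 7.33, 7.33 and 6.28 CPM with NFIC shRNA (log2 fold change -0.89 ± 0.11 (SE), edgeR adjusted p = 1.57e-06). EEF1AKMT4 had 4.85, 4.55 and 6.03 CPM with scrambled and 2.72, 2.59 and 3.16 CPM with NFIC shRNA (log2 fold change -0.86 ± 0.17 (SE), edgeR adjusted p = 2.44e-04), but 49.2% of its exonic bases belong to ECE2 as well. EEF1AKMT2 went the opposite way, with 28.02, 25.9 and 21.1 CPM in controls and 32.4, 36.8 and 37.7 CPM in knockdown samples (log2 fold change 0.51 ± 0.094 (SE), edgeR adjusted p = 1.84e-04). These 3 methyltransferase genes therefore did not move together, although the groups of each stayed apart.

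EEF2KMT, the methyltransferase of eEF2, had 15.9964, 15.6 and 14.7 CPM with scrambled and 10.3, 11.9 and 13.8 CPM with NFIC shRNA (log2 fold change -0.36 ± 0.11 (SE), edgeR adjusted p = 0.00758). Without NFIC replicate 1 its adjusted p rose to 0.0611, and ALG1 on the opposite strand shares 31.4% of its exonic bases. The 2 other enzymes were not called. EEF1AKNMT, which methylates eEF1A at its amino terminus and on a lysine, had 58.1, 55.8 and 53.99 CPM with scrambled and 65.1, 58.2 and 61.7 CPM with NFIC shRNA (log2 fold change 0.14 ± 0.061 (SE), edgeR adjusted p = 0.0589), and EEF1AKMT1 had a log2 fold change of -0.15 ± 0.14 (SE).

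The eIF3 complex, the largest of the initiation factors and the scaffold that joins the small subunit to eIF4G, was the largest group without a higher call. Of its 14 genes tested 11 were called lower and none higher, with a median log2 fold change of -0.50. The sum of the group went from 3516 ± 58.1 to 2526 ± 39.1 CPM, a change of -28.2% (exact permutation p = 0.1). EIF3B was called higher in 3 of 17 alternatives, with total counts, without NFIC replicate 2 and with a replicate block by the numbers in the sample titles. The 11 lower calls stood in every alternative. The 8 subunits with PCI or MPN domains that form the core of the human complex (EIF3A, EIF3C, EIF3E, EIF3F, EIF3H, EIF3K, EIF3L and EIF3M) were all lower, with a median of -0.59. Of the 5 other subunits EIF3D, EIF3G and EIF3J were lower, and EIF3B and EIF3I were not called. This division was made after the values were known.

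EIF3F (ENSG00000175390, chr11:7970251-8001862), an MPN-domain subunit, fell most in the complex. It had 225, 226 and 222 CPM in scrambled samples and 93.5, 90.9 and 89.6 CPM in NFIC shRNA samples. Replicates differed by few CPM in either group, and 40.7% of the control level remained (log2 fold change -1.30 ± 0.049 (SE), edgeR adjusted p = 1.62e-12). EIF3A, the scaffold of the core, had 590.3, 612 and 634 CPM with scrambled and 387, 373 and 380.0 CPM with NFIC shRNA (log2 fold change -0.69 ± 0.048 (SE), edgeR adjusted p = 2.38e-09). EIF3E, a PCI subunit, had 480.1, 493 and 507 CPM with scrambled and 315, 347 and 309 CPM with NFIC shRNA (log2 fold change -0.61 ± 0.053 (SE), edgeR adjusted p = 3.59e-08). EIF3L, the most abundant of the complex per length in these cells, had 626, 642 and 652 CPM with scrambled and 438, 446 and 413 CPM with NFIC shRNA (log2 fold change -0.57 ± 0.049 (SE), edgeR adjusted p = 2.87e-08). For these 3 genes every knockdown sample was below every control, at 62.1% to 67.5% of control. AL022311.1 shares 41.1% of the exonic bases of EIF3L on the same strand and had 45.3% to 47.5% of its counts.

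EIF3G, an RNA-binding subunit outside the core, had 127, 119 and 116 CPM with scrambled and 82.3, 88.2 and 83.7 CPM with NFIC shRNA (log2 fold change -0.51 ± 0.055 (SE), edgeR adjusted p = 4.07e-07). EIF3C had 24.1, 22.8 and 30.7 CPM with scrambled and 17.3, 13.3 and 12.5 CPM with NFIC shRNA (log2 fold change -0.85 ± 0.13 (SE), edgeR adjusted p = 7.95e-05). Its near-identical copy EIF3CL had 0.786, 0.935 and 0.747 CPM with scrambled and 0.728, 0.388 and 0.563 CPM with NFIC shRNA and was not called (log2 fold change -0.57 ± 0.34 (SE), edgeR adjusted p = 0.16). EIF3C stood at 3.66 ± 0.608 FPKM in controls, far below the other core subunits at 20.3 to 147 FPKM. How reads that match both copies were counted is not given in the sources used here, so the values of these 2 genes are uncertain. The lower calls of EIF3K, EIF3M, EIF3D, EIF3J and EIF3H were smaller, with log2 fold changes between -0.49 (EIF3K) and -0.19 (EIF3H).

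Besides EIF3CL, 2 genes of the complex were not called. EIF3I, a WD-repeat subunit, had 106, 108 and 104 CPM in controls and 106, 96.5 and 107 CPM after knockdown, with overlapping groups (log2 fold change -0.04 ± 0.055 (SE), edgeR adjusted p = 0.56). EIF3B, the scaffold that binds EIF3I and EIF3G, had 182, 186 and 185 CPM with scrambled and 196, 193 and 206 CPM with NFIC shRNA (log2 fold change 0.11 ± 0.049 (SE), edgeR adjusted p = 0.0704). Its adjusted p was between 0.0285 and 0.376 under the alternatives examined. Within eIF3 the fitted fold changes thus ranged from -1.30 to 0.11.

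**Figure D3:**
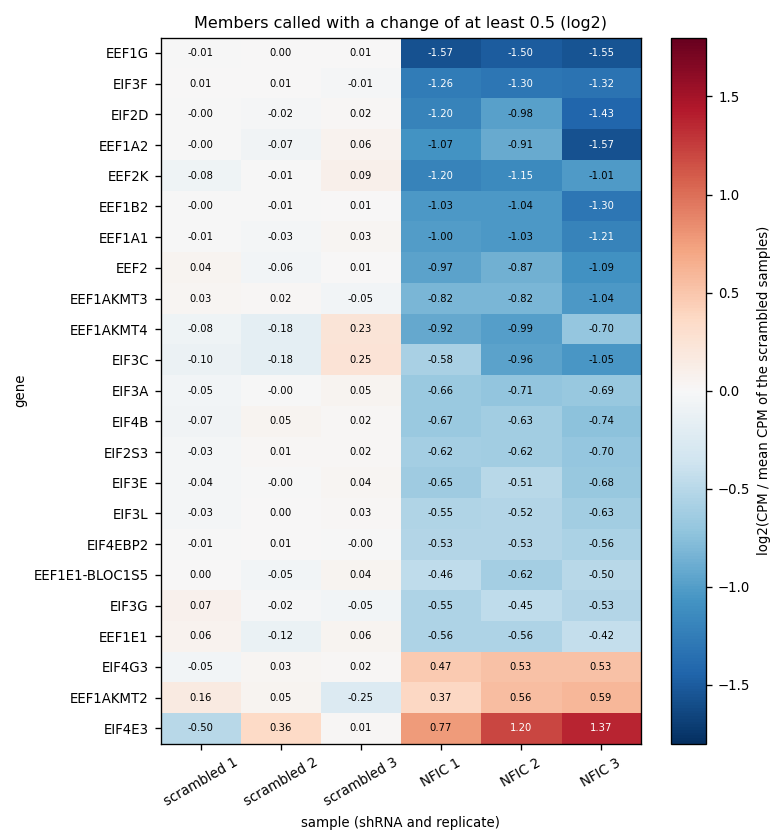
Level of the 23 members called with a log2 fold change of at least 0.5 in either direction, in each of the 6 samples (columns), as log2 of CPM over the mean CPM of the scrambled samples; the color bar gives the scale. The 20 genes at the top are below zero in all 3 NFIC shRNA samples and the 3 at the bottom, EIF4G3, EEF1AKMT2 and EIF4E3, are above zero in all 3.

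The eIF4 group moved mostly the other way. It holds the factors that bind the cap and unwind the leader, and relatives with other roles (EIF4A3, EIF4E2 and EIF4G2). Of 11 genes tested 8 were called higher and 2 lower, with a median log2 fold change of 0.45. The summed level of the group was 4573 ± 81.5 CPM in scrambled samples and 4643 ± 71.3 CPM after knockdown (exact permutation p = 0.5), a change of 1.54% that became -2.39% under upper-quartile normalization. The most abundant gene of the group per length, EIF4B, was among those that fell. EIF4B encodes the RNA-binding partner that stimulates the helicase eIF4A, and it had 1257, 1362 and 1336 CPM in scrambled samples and 828, 853 and 788 CPM in NFIC shRNA samples (62.4% of control, log2 fold change -0.68 ± 0.051 (SE), edgeR adjusted p = 5.38e-09). EIF4H, a smaller partner of the same helicase, rose from 238, 236 and 237 CPM to 338, 312 and 330.4 CPM (log2 fold change 0.46 ± 0.049 (SE), edgeR adjusted p = 3.11e-07). These helicase partners therefore changed in opposite directions, each with groups that did not overlap.

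The eIF4G scaffolds all rose. EIF4G1, the principal scaffold, had 575, 577 and 565 CPM with scrambled and 652, 629 and 689 CPM with NFIC shRNA (log2 fold change 0.20 ± 0.049 (SE), edgeR adjusted p = 0.00208). EIF4G2 (ENSG00000110321, chr11:10797050-10808940), a relative without the binding site for eIF4E that acts in cap-independent initiation, had 669.6, 687 and 688 CPM with scrambled and 944, 903 and 1021 CPM with NFIC shRNA (log2 fold change 0.49 ± 0.052 (SE), edgeR adjusted p = 3.72e-07). EIF4G3, a close homolog of EIF4G1, had 248, 261 and 259 CPM with scrambled and 354, 370.2 and 371 CPM with NFIC shRNA (log2 fold change 0.51 ± 0.048 (SE), edgeR adjusted p = 8.39e-08). In each of the 3 genes the lowest knockdown sample was above the highest control.

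The cap-binding proteins rose as well. EIF4E, the cap-binding subunit of eIF4F, had 70.1, 75.6 and 73.7 CPM in scrambled samples and 96.4, 96.5 and 106 CPM after knockdown (log2 fold change 0.45 ± 0.058 (SE), edgeR adjusted p = 3.64e-06). EIF4E2, a cap-binding repressor of translation, had 85.02, 86.1 and 85.8 CPM with scrambled and 124, 115 and 121 CPM with NFIC shRNA (log2 fold change 0.48 ± 0.052 (SE), edgeR adjusted p = 4.01e-07). EIF4E3 showed the largest increase among the members at a very low level, with 0.786, 1.42 and 1.12 CPM with scrambled and 1.89, 2.54 and 2.86 CPM with NFIC shRNA (log2 fold change 1.12 ± 0.25 (SE), edgeR adjusted p = 9.63e-04). Its mean over the 6 libraries was 40 counts, and its SE is the widest of the higher members.

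Of the helicases EIF4A1 had 497, 506 and 519 CPM with scrambled and 555, 545 and 592 CPM with NFIC shRNA (log2 fold change 0.15 ± 0.049 (SE), edgeR adjusted p = 0.0131). This call was lost under upper-quartile normalization and without scrambled replicate 1, and its adjusted p was between 0.00315 and 0.0911 over the alternatives. The readthrough gene SENP3-EIF4A1 shares 28.2% of its exonic bases and had 102% to 103% of its counts, and AC016876.3 shares 42.1% and had 119% to 151%. AC016876.3 had 15923, 18743 and 16465 counts with scrambled and 13846, 15625 and 16266 counts with NFIC shRNA, lower on average. The value of EIF4A1, also in its ratio to EIF4A2, is therefore uncertain. EIF4A2 fell from 744, 729 and 744 CPM to 629, 654 and 592 CPM (log2 fold change -0.24 ± 0.050 (SE), edgeR adjusted p = 4.50e-04). EIF4A3, a core protein of the exon junction complex, was not called (log2 fold change 0.06 ± 0.059 (SE)).

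Ratios within a sample do not depend on how libraries are scaled, and 10 pairs of related genes were compared as the log2 ratio of their counts, each with 1 added. EIF4A2 over EIF4A1 had a log2 ratio of 0.54 ± 0.034 (SD, n = 3) in scrambled samples and of 0.15 ± 0.14 after knockdown. EIF4G2 over EIF4G1 was 0.25 ± 0.031 and 0.54 ± 0.023, and EIF4G3 over EIF4G1 was -1.16 ± 0.044 and -0.85 ± 0.072. EIF4E3 over EIF4E was -6.02 ± 0.35 and -5.35 ± 0.25, and EIF5A2 over EIF5A was -4.44 ± 0.13 and -4.80 ± 0.22. In these 5 pairs the groups did not overlap, and each had an exact permutation p of 0.1, the smallest possible, and 0.2 after Benjamini-Hochberg adjustment over the 10 pairs. None of the pairs therefore passed the threshold, which the design cannot reach. The ratios of the 5 other pairs overlapped between groups. The difference of the mean ratios was 0.04 for EIF4E2 over EIF4E (exact permutation p = 0.7), -0.10 for EEF1A2 over EEF1A1 (0.7), 0.03 for EIF1B over EIF1 (0.9), 0.07 for EIF5AL1 over EIF5A (0.8) and 0.29 for EIF3CL over EIF3C (0.4).

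**Figure D4:**
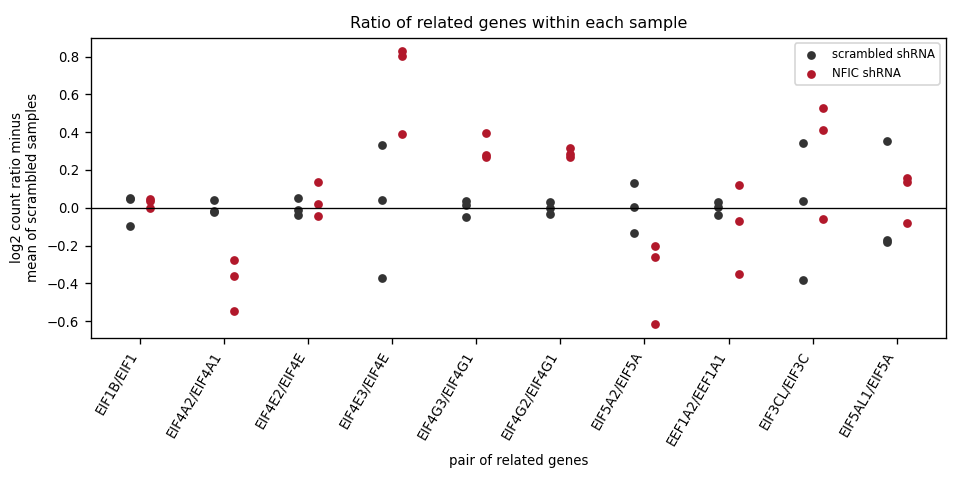
Log2 ratio of the counts of 2 related genes in each sample, less the mean ratio of the scrambled samples (vertical axis), for 10 pairs; dark points are the 3 scrambled samples and red points the 3 NFIC shRNA samples. EIF4A2/EIF4A1 and EIF5A2/EIF5A lie below the controls and EIF4E3/EIF4E, EIF4G3/EIF4G1 and EIF4G2/EIF4G1 above, while the other 5 pairs overlap.

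Proteins that keep eIF4E from eIF4G fell or were not called. EIF4EBP2, a translational repressor that mTORC1 inactivates by phosphorylation, had 204, 207 and 205 CPM in scrambled samples and 143, 142 and 139 CPM after knockdown (log2 fold change -0.54 ± 0.047 (SE), edgeR adjusted p = 3.11e-08). EIF4EBP3 had 7.54, 8.61 and 9.20 CPM with scrambled and 6.60, 6.34 and 6.76 CPM with NFIC shRNA (log2 fold change -0.36 ± 0.12 (SE), edgeR adjusted p = 0.015), a call that was lost with DESeq2 and without scrambled replicate 3. The readthrough gene ANKHD1-EIF4EBP3 covers 73.2% of the exonic bases of EIF4EBP3 and had 2075% to 3960% of its counts. That gene had 3940, 4437 and 4088 counts with scrambled and 5238, 5742 and 6178 counts with NFIC shRNA, the opposite direction, so the value of EIF4EBP3 is uncertain. EIF4ENIF1, which carries eIF4E into the nucleus and to processing bodies, had 31.6, 32.3 and 35.2 CPM with scrambled and 35.7, 36.8 and 37.3 CPM with NFIC shRNA (log2 fold change 0.15 ± 0.068 (SE), edgeR adjusted p = 0.0715). EIF4EBP1, the best known of these repressors and not a member by the rule, had 96.4, 93.7 and 95.7 CPM with scrambled and 41.1, 45.9 and 38.1 CPM with NFIC shRNA (log2 fold change -1.19 ± 0.066 (SE), edgeR adjusted p = 1.50e-10). EIF4EBP1 and EIF4EBP2 were thus lower in the same samples in which EIF4E was higher.

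The subunits of eIF2, the GTPase that carries the initiator tRNA, did not move together. EIF2S3, the gamma subunit that binds GTP and the tRNA, fell from 198, 205 and 205 CPM to 132, 132 and 125 CPM (log2 fold change -0.64 ± 0.049 (SE), edgeR adjusted p = 6.30e-09). EIF2S2, the beta subunit, was called higher (log2 fold change 0.29 ± 0.047 (SE), edgeR adjusted p = 4.40e-05), and EIF2S1, the alpha subunit that stress kinases phosphorylate, was not called (log2 fold change 0.08 ± 0.064 (SE)). The groups of EIF2S3 and of EIF2S2 did not overlap, in opposite directions.

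Of the subunits of eIF2B, the exchange factor of eIF2, the catalytic epsilon subunit EIF2B5 rose (log2 fold change 0.47 ± 0.055 (SE), edgeR adjusted p = 9.81e-07). EIF2B3 had 12.8, 15.1 and 13.6 CPM with scrambled and 12.4, 11.4 and 10.3 CPM with NFIC shRNA (log2 fold change -0.29 ± 0.10 (SE), edgeR adjusted p = 0.0227), with adjusted p between 0.00885 and 0.101 over the alternatives. EIF2B4 had 20.8, 18.8 and 19.1 CPM with scrambled and 21.98, 22.1 and 22.7 CPM with NFIC shRNA and just missed the threshold (log2 fold change 0.18 ± 0.079 (SE), edgeR adjusted p = 0.0524). EIF2B2 had 16.6, 18.7 and 17.2 CPM with scrambled and 14.5, 17.2 and 14.6 CPM with NFIC shRNA with overlapping groups (log2 fold change -0.18 ± 0.093 (SE), edgeR adjusted p = 0.105), and EIF2B1 was not called (log2 fold change 0.11 ± 0.065 (SE)). The sum over eIF2 and eIF2B changed by 3.79% (exact permutation p = 0.1) and by -0.234% under upper-quartile normalization.

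EIF2D, which can deliver tRNA to the small subunit without GTP and also acts in ribosome recycling, was among the members that fell most. It had 60.5, 59.6 and 61.3 CPM in scrambled samples and 26.3, 30.7 and 22.5 CPM in NFIC shRNA samples, 43.8% of control (log2 fold change -1.19 ± 0.087 (SE), edgeR adjusted p = 6.15e-09). Control samples lay within 2 CPM of each other and the knockdown samples were further apart. EIF2A, which is unrelated to the alpha subunit of eIF2 and can also bring in the initiator tRNA, had 187, 184 and 186 CPM with scrambled and 169, 181 and 179.9 CPM with NFIC shRNA (log2 fold change -0.07 ± 0.049 (SE), edgeR adjusted p = 0.228), and was called lower only under upper-quartile normalization among the alternatives.

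Of the kinases that phosphorylate eIF2 alpha and so lower initiation under stress, EIF2AK4 (GCN2, the sensor of amino acid shortage) fell, with a log2 fold change of -0.43 ± 0.060 (SE) (edgeR adjusted p = 9.08e-06). EIF2AK2 (PKR, the sensor of double-stranded RNA) rose (log2 fold change 0.26 ± 0.063 (SE), edgeR adjusted p = 0.0016). EIF2AK1 (HRI, the kinase regulated by heme) had 136, 147 and 139 CPM with scrambled and 152, 148 and 166 CPM with NFIC shRNA (log2 fold change 0.15 ± 0.055 (SE), edgeR adjusted p = 0.0306), and this call was lost in 6 of 17 alternatives. EIF2AK3 (PERK, the sensor of unfolded proteins in the endoplasmic reticulum) was not called (log2 fold change 0.10 ± 0.10 (SE)). The summed level of the kinases changed by 2.02%, with overlapping groups (exact permutation p = 0.5), and by -1.94% under upper-quartile normalization.

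In the group of start codon recognition, which also takes in the eIF1A-like gene EIF1AD, 3 were called higher and 1 lower of 6. EIF5, which activates the GTPase of eIF2 at the start codon, had the clearest increase, with a log2 fold change of 0.44 ± 0.060 (SE) (edgeR adjusted p = 8.32e-06). EIF1, which guards against initiation at wrong codons, had 513, 469 and 493 CPM with scrambled and 484, 507 and 453 CPM with NFIC shRNA with overlapping groups (log2 fold change -0.03 ± 0.054 (SE), edgeR adjusted p = 0.651). Its paralog EIF1B had 30.98, 31.4 and 32.9 CPM with scrambled and 32.4, 33.7 and 29.3 CPM with NFIC shRNA, and the groups overlapped as well (edgeR adjusted p = 0.994). Of the genes for eIF1A, which promotes scanning, EIF1AX had 67.6, 67.2 and 69.2 CPM with scrambled and 63.9, 58.2 and 62.1 CPM with NFIC shRNA (log2 fold change -0.15 ± 0.057 (SE), edgeR adjusted p = 0.0358) and EIF1AY a log2 fold change of 0.24 ± 0.094 (SE) (edgeR adjusted p = 0.0382). EIF1AD, which resembles eIF1A, had 15.1, 17.4 and 17.3 CPM with scrambled and 19.1, 18.3 and 22.8 CPM with NFIC shRNA (log2 fold change 0.27 ± 0.097 (SE), edgeR adjusted p = 0.0231). The calls of these 3 genes were lost in 8, 9 and 4 of 17 alternatives, respectively. Under upper-quartile normalization EIF5 was the only higher call left of the group.

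The factors that join the large subunit and eIF5A, the hypusinated protein that helps ribosomes past difficult peptide bonds, held a single call, and 3 lower calls under upper-quartile normalization. EIF5A had 198, 209 and 201 CPM with scrambled and 190.3, 186 and 197 CPM with NFIC shRNA (log2 fold change -0.08 ± 0.049 (SE), edgeR adjusted p = 0.147), and was called lower under upper-quartile normalization (edgeR adjusted p = 0.0142). Its paralog EIF5A2 had 9.94, 8.74 and 9.25 CPM with scrambled and 7.28, 7.41 and 5.89 CPM with NFIC shRNA, which was called lower (log2 fold change -0.44 ± 0.12 (SE), edgeR adjusted p = 0.00506), and the copy EIF5AL1 had 0.647, 1.02 and 0.654 CPM with scrambled and 0.776, 0.776 and 0.693 CPM with NFIC shRNA (edgeR adjusted p = 0.881). EIF5B, the GTPase of subunit joining, had 225, 239 and 227 CPM with scrambled and 248, 243 and 259 CPM with NFIC shRNA and missed the threshold narrowly (log2 fold change 0.12 ± 0.049 (SE), edgeR adjusted p = 0.0516). It was called in 7 of 17 alternatives. EIF6, which holds the large subunit apart until it is mature, had 58.5, 56.03 and 56.98 CPM with scrambled and 55.2, 50.7 and 52.2 CPM with NFIC shRNA (log2 fold change -0.12 ± 0.059 (SE), edgeR adjusted p = 0.0965), and was likewise called lower under that normalization (edgeR adjusted p = 0.0168). The summed level of the group changed by 0.160% (exact permutation p = 0.9) and by -3.71% under upper-quartile normalization.

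Genes outside the rule that act with the factors were read from the same fit. The counts in each of these lists stand beside 29.6% of all genes tested called higher and 30.3% called lower. Of 6 genes for poly(A)-binding proteins and their partners 3 were lower and 3 higher. PABPC1, the main cytoplasmic poly(A)-binding protein, which ties the tail of an mRNA to eIF4G, had 1852, 1774 and 1883 CPM with scrambled and 1332, 1403 and 1182 CPM with NFIC shRNA (log2 fold change -0.49 ± 0.059 (SE), edgeR adjusted p = 1.64e-06). PABPC4 had 559.5, 538 and 573 CPM with scrambled and 302, 304 and 295 CPM with NFIC shRNA (log2 fold change -0.89 ± 0.048 (SE), edgeR adjusted p = 1.12e-10), and LARP1 had 460.1, 472 and 457 CPM with scrambled and 332, 331 and 328 CPM with NFIC shRNA (log2 fold change -0.49 ± 0.046 (SE), edgeR adjusted p = 8.42e-08). Both poly(A)-binding proteins and LARP1 thus fell, whereas PAIP1, PAIP2 and PAIP2B, which bind PABPC1, rose by log2 fold changes of 0.31, 0.12 and 1.09.

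Of 10 genes of mTORC1, S6 kinase and MNK signaling, which acts on eIF4B, eEF2K and the eIF4E-binding proteins, 6 were higher and 2 lower. AKT1S1, an inhibitor within mTORC1, rose by 0.78 ± 0.072 (SE) on the log2 scale (edgeR adjusted p = 6.76e-08), MKNK2, a kinase of eIF4E, by 0.51 ± 0.063 (SE) (edgeR adjusted p = 2.80e-06) and PDCD4, an inhibitor of eIF4A, by 0.36 ± 0.048 (SE) (edgeR adjusted p = 5.07e-06). The other higher genes were RPS6KB1, an S6 kinase, and RPTOR and MTOR of mTORC1, with log2 fold changes of 0.43, 0.37 and 0.32 (edgeR adjusted p = 8.99e-06, 4.29e-05 and 1.91e-04). Besides EIF4EBP1 the lower gene was MLST8, a subunit of mTORC1 (log2 fold change -0.72 ± 0.094 (SE), edgeR adjusted p = 1.26e-05). Inhibitors and activators of translation therefore stood on both sides of this list.

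Of 8 termination and ribosome recycling genes 4 were higher and 2 lower. HBS1L, which rescues stalled ribosomes, had 83.9, 90.4 and 88.1 CPM with scrambled and 155, 155 and 174 CPM with NFIC shRNA (log2 fold change 0.88 ± 0.058 (SE), edgeR adjusted p = 1.03e-09). ETF1, the release factor eRF1, had a log2 fold change of 0.48 ± 0.058 (SE) (edgeR adjusted p = 1.41e-06). DENR and MCTS1, which encode partners in a recycling dimer that resembles EIF2D, changed in opposite directions, with log2 fold changes of 0.21 and -0.53 (edgeR adjusted p = 0.00303 and 4.69e-05). GSPT2, a form of eRF3, fell (log2 fold change -0.61 ± 0.12 (SE), edgeR adjusted p = 2.80e-04).

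Of 9 enzymes that make hypusine on eIF5A or diphthamide on eEF2, 4 were lower and 2 higher. DPH5, a methyltransferase of the diphthamide pathway, had 28.2, 28.2 and 31.5 CPM with scrambled and 11.9, 12.5 and 12.4 CPM with NFIC shRNA (log2 fold change -1.26 ± 0.083 (SE), edgeR adjusted p = 1.12e-09). DHPS, which starts hypusine synthesis, had a log2 fold change of -0.59 ± 0.072 (SE) (edgeR adjusted p = 1.85e-06) and DPH2 one of -0.70 ± 0.087 (SE) (edgeR adjusted p = 2.77e-06), while DPH3 and DPH1 rose by 0.46 and 0.27 (edgeR adjusted p = 1.06e-05 and 0.00159). Among 5 genes of eIF2 alpha phosphatase and GCN2 partners 3 were higher and 1 lower. IMPACT, an inhibitor of GCN2, fell like that kinase (log2 fold change -0.67 ± 0.070 (SE), edgeR adjusted p = 2.83e-07), and DNAJC3, PPP1R15A, the stress-induced subunit of the phosphatase, and GCN1, which activates GCN2, rose by 0.49, 0.41 and 0.19. In the last list, 9 mitochondrial translation factors, 3 were lower and 2 higher. TUFM, the mitochondrial counterpart of eEF1A, had 154, 174 and 162 CPM with scrambled and 124, 121 and 129.7 CPM with NFIC shRNA (log2 fold change -0.39 ± 0.055 (SE), edgeR adjusted p = 1.11e-05). MRRF and MTIF2 were also lower (-0.56 and -0.20), and MTRF1L and GFM1 were higher (0.31 and 0.13).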

How the data were processed

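Bulk mRNA sequencing of 6 THP-1 samples was analyzed. The authors deposited raw counts per gene, made by trimming paired-end reads with Trim Galore, mapping to GRCh38 with STAR and counting with featureCounts on Ensembl release 96. Whether counting used strand is not given in the sources used here. The authors also deposited FPKM values, made from size-factor normalized counts and gene length, which were used only for levels between genes. Columns of the authors' own DESeq2 comparison (fold changes, p-values) and other normalized columns were not used.

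Groups followed the labels. The raw counts were fitted in R 4.3.3 by edgeR 4.0.16, using TMM, filterByExpr, robust dispersions and the quasi-likelihood test, with no replicate block and with adjusted p over 19182 genes at a threshold of 0.05. The SE is the log2 fold change divided by the square root of F. Alternatives were DESeq2 1.42.0, limma 3.58.1 (voom), other scalings and filters, a threshold of 0.01, protein-coding genes, each sample left out, and replicate blocks. Sums and count ratios were compared by exact two-sided permutation. The steps were tested on simulated counts.

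Members and gene lists were chosen with earlier results of these data known. A gene of the marker lists is not reported here. Values per sample are given for members called with an absolute log2 fold change of at least 0.5 and for the 6 highest in FPKM. They are also given for the least changed gene of eIF3 and of the elongation factors and for members of the paired comparisons. Members whose call changed under an alternative are included as well (for EIF1AY only the fold change). Up to 3 genes per direction are given for the other lists, and all genes called for the mTORC1 list. Gene positions come from GENCODE release 44, matched by identifier for all 70 members, and starts from the RefSeq promoter table of GRCh38.p14. At the depth of these libraries 3 counts equal at most 0.146 CPM.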

Additional observations from a re-analysis of the deposited data

How the results depend on the processing

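Of the 49 members called, 41 kept their call and direction under each of the up to 17 alternatives that could test them, and no member reversed. Of the 19 not called, 9 were called under at least 1 alternative. Members called higher numbered 12 to 21 and members called lower 30 to 37, against 16 and 33. Upper-quartile normalization gave 12 and 37, total counts 21 and 32, DESeq2 16 and 30 and a threshold of 0.01 12 and 30. The median log2 fold change of the members moved from -0.16 to -0.220 under upper-quartile normalization, -0.146 with total counts, -0.148 with DESeq2 and -0.177 with protein-coding genes only, and to between -0.204 and -0.149 when a sample was left out. The median over all genes was -0.07 under upper-quartile normalization and -0.01 in the reported fit, so members with small changes follow the scaling. The cause of these shifts beyond the scaling itself was not tested. The difference in summed CPM was between -18301 and -16437 over the scalings and left-out samples and -4091 without EEF1A1. Pairing of the samples by replicate number was examined and was not used in the reported fit. Correlations of deviations were 0.056, -0.086 and -0.045 for the labels' numbers, and 0 of 3 scrambled samples correlated best with their own number. By the numbers in the titles they were 0.056 (scrambled 1 with NFIC 1) and 0.145 (scrambled 2 with NFIC 3). The samples left over, scrambled 3 and NFIC 2, share no title number and gave 0.027. The replicate block gave 10983 calls over all genes, 14 members higher and 32 lower, against 11486, 16 and 33. The block by title number, with the left-over samples put together, gave 12099, 20 and 33. Depth limits EIF4E3, EIF3CL and EIF5AL1, each with a mean of at most 40 counts.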

Other observations

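Pseudogene copies were also counted in the table, 65 in all, which are copies of 20 members and EIF4EBP1P1, a copy of EIF4EBP1. The 18 copies of EEF1A1 held 3055, 3400 and 3168 counts in scrambled samples and 1668, 1630 and 1637 in NFIC shRNA samples, which was 0.574% to 0.669% of the counts of EEF1A1 in each sample. The 7 copies of EIF4B held 1.04% to 1.28% of the counts of EIF4B and the single copy of EIF3E 1.24% to 1.83% of those of EIF3E. For 15 of the 20 members the copies stayed below 1% in all samples. Counts on these copies thus followed EEF1A1 downward, and whether they are reads of the parent genes was not tested. EIF3J-DT, a divergent noncoding gene beside EIF3J, had 195, 209 and 219 counts in scrambled samples and 208, 223 and 234 after knockdown.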
